A study of Caenorhabditis elegans with 6 samples.

Results

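RNA levels of 9 Caenorhabditis elegans genes of contractile filaments and of the gonadal sheath were examined in 6 RNA-seq libraries of dissected hermaphrodite germlines. The genes were taken by sequence name from the 45461 gene names in the count tables. Thick filament genes were unc-54 (F11C3.3), myo-3 (K12F2.1) and unc-15 (F07A5.7), thin filament genes were lev-11 (Y105E8B.1), mup-2 (T22E5.5), pat-10 (F54C1.7) and unc-27 (ZK721.2), and the homeodomain regulators were lim-7 (C04F1.3) and ceh-18 (ZC64.3). By the WBcel235 annotation, unc-54, unc-15, lev-11, pat-10 and lim-7 lie on chromosome I, myo-3 lies on chromosome V, and mup-2, unc-27 and ceh-18 lie on chromosome X. All 9 are protein coding, and 0 bases of their exons are shared with an exon of another annotated gene.

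The hermaphrodite gonad arm is a tube of germ cells wrapped by thin somatic sheath cells, which are myoepithelial: they hold actin and myosin filaments and contract to push the mature oocyte out. The filaments are densest in the proximal sheath, beyond the bend of the arm, whereas the arms sequenced here were cut at the bend and hold the distal germline. Body wall muscle uses many of the same filament proteins in far larger amounts. In the early embryo, the somatic gonad, most body wall muscle, the intestine and the germline all descend from the posterior daughter of the zygote.

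Germline RNA was compared among 3 groups with 2 libraries each. The “red-head” F1 germlines held only chromosomes that came from sperm, as progeny of HBR1281 hermaphrodites, which carry oxTi411 on chromosome III (a TdTomato::H2B fusion driven by eft-3p and followed by the unc-54 3′UTR, with Cbr-unc-119(+) beside it) and the GPR-1 overexpression transgene ddIs32 (yfp::gpr-1, synthetic), and of HBR1280 males. The F2 offspring were progeny of “red-head” F1 hermaphrodites. Control germlines came from HBR1280 hermaphrodites and had chromosomes of both parents. In each group the germline genotype was that of HBR1280 with oxTi75, in which the broadly active eft-3p promoter drives GFP::H2B with the tbb-2 3′UTR and unc-18(+) is included, and each library pooled distal arms of oogenic germlines from day 1 adults kept at 24 °C. Somatic cells from the anterior daughter of the zygote keep the maternal genome in “red-head” animals, and the TdTomato transgene in it holds a stretch of unc-54 that controls lack in that form.

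Counts on genes totalled 11310273 and 2721055 in the “red-head” F1 libraries, 7150847 and 3673141 in the F2 offspring libraries, and 7469633 and 4980329 in the control libraries. Levels are given as CPM, counts relative to library size corrected by edgeR's TMM factors. The 6 libraries entered a single quasi-likelihood fit in edgeR over 8117 genes kept after low counts were filtered out, p-values were adjusted over those genes (Benjamini-Hochberg), and a gene is said to be called where the adjusted p was under 0.05. Of the 9 members, 8 passed the filter and ceh-18 did not. Each library's CPM has an exact 95% Poisson interval, and these intervals cover counting error only. Group values are given as mean ± SD (n = 2).

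The filament RNAs were present at low levels in every library. Summed over the 7 filament genes they made up 0.00868% and 0.0181% of counts on genes in “red-head” F1 libraries, 0.0168% and 0.00261% in F2 offspring libraries, and 0.00955% and 0.0056% in control libraries. Per kilobase of exon (RPKM scale), the mean level over 6 libraries was 12.3 for pat-10, 6.72 for lev-11, 6.54 for unc-54, 6.49 for unc-27, 4.86 for mup-2, 4.35 for unc-15, 0.951 for myo-3, 0.914 for lim-7 and 0.293 for ceh-18. Ranked among tested genes, the percentile of these levels was 35.5 for pat-10, 29.2 for unc-54 and 4.59 for lim-7. The lowest and highest library spanned 2.05 to 34.5 RPKM for pat-10 and 2.03 to 11.6 RPKM for unc-54. From pat-10 to unc-15 the ranges overlapped, but the genes share libraries, so overlap does not show that neighbours were equal. Per length of all exons, pat-10 was above lev-11, the next in this order, in each library. Differences between genes were not tested. The range of myo-3, 0.469 to 1.38 RPKM, lay below those of unc-54, which ran from 2.03 RPKM, and overlapped that of lim-7, which was 0.193 to 1.86 RPKM.

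**Figure D1:**
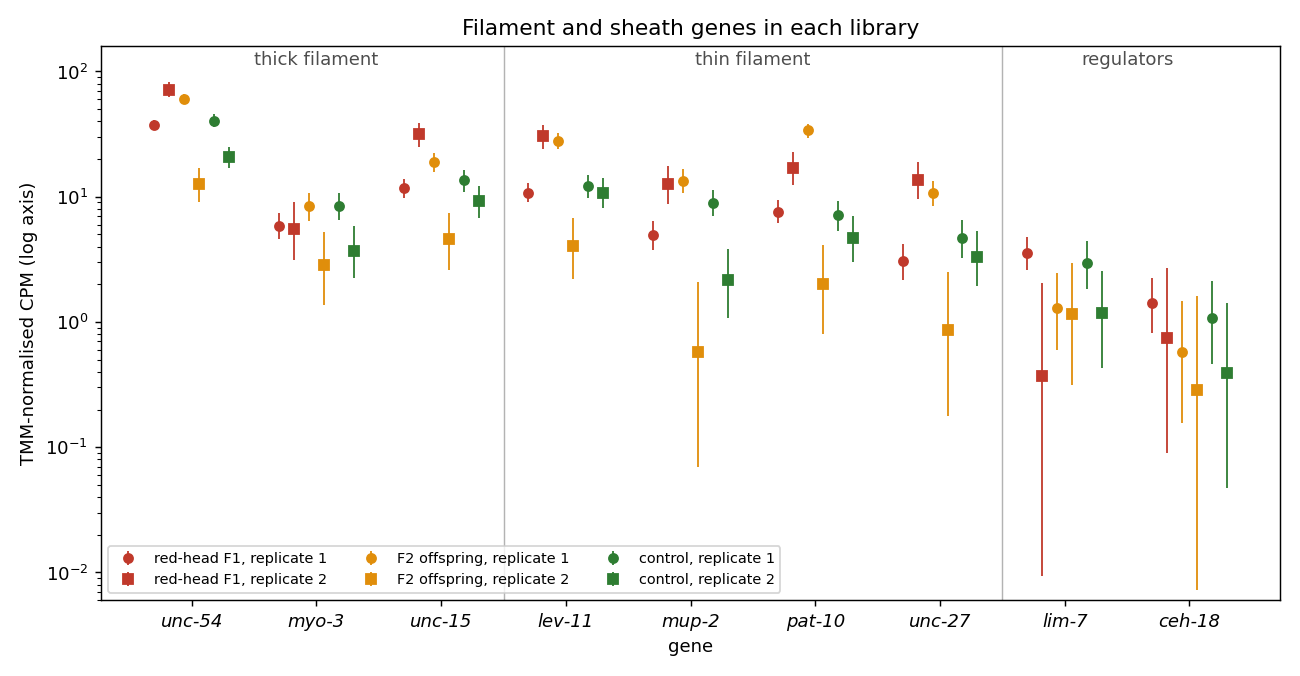
TMM-normalised CPM of the 9 genes in each library on a log axis. Points are single libraries, circles are replicate 1 and squares replicate 2, colours are groups, and bars are exact 95% Poisson intervals. Among filament genes the F2 offspring replicate 2 library is lowest for all 7, for example 12.6 CPM for unc-54 and 4.01 CPM for lev-11.

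Thick filaments are built of myosin heavy chains around a core of paramyosin. unc-54, the main body wall myosin heavy chain (MHC B), had 37.3 and 71.8 CPM in “red-head” F1 libraries, 60.4 and 12.6 CPM in F2 offspring libraries, and 40.6 and 20.7 CPM in control libraries. The groups overlapped, and the F2 offspring libraries held both the second highest and the lowest value. The group means were 54.6 ± 24.5 CPM in “red-head” F1, 36.5 ± 33.8 CPM in F2 offspring and 30.7 ± 14.1 CPM in control. The fit to the counts gave unc-54 a log2 fold change of 0.79 ± 0.66 (SE) for “red-head” F1 against control. Its adjusted p was 0.855 by edgeR's quasi-likelihood test. The difference was within the spread of the libraries.

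myo-3 encodes MHC A, the myosin at the centre of the thick filament. It had 5.88 and 5.55 CPM in “red-head” F1 libraries, 8.37 and 2.87 CPM in F2 offspring libraries, and 8.44 and 3.71 CPM in control libraries. Both “red-head” values lay between those of the other groups. The log2 fold change of myo-3 was -0.10 ± 0.62 for “red-head” F1 against control, with an adjusted p of 0.985 by edgeR's quasi-likelihood test. unc-15, paramyosin, had 11.7 and 31.5 CPM in “red-head” F1 libraries, 18.9 and 4.59 CPM in F2 offspring libraries, and 13.5 and 9.19 CPM in control libraries. Its order of libraries had “red-head” replicate 2 on top and F2 replicate 2 at the bottom, and “red-head” replicate 1 lay inside the control range. For unc-15 the log2 fold change was 0.88 ± 0.69 for “red-head” F1 against control, with an adjusted p of 0.842 by the same edgeR test.

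Thin filaments carry tropomyosin and the troponin complex, which switches contraction on when calcium binds. lev-11, tropomyosin, had 10.8 and 30.4 CPM in “red-head” F1 libraries, 27.9 and 4.01 CPM in F2 offspring libraries, and 12.2 and 10.8 CPM in control libraries. The control libraries stood within 1.13-fold of each other, while the “red-head” libraries differed 2.80-fold and the F2 offspring libraries 6.95-fold. The annotation gives lev-11 20 transcripts, which the counts do not separate, and its mean level was 10.4 RPKM with the longest transcript in place of all exons. The log2 fold change of lev-11 was 0.80 ± 0.81 for “red-head” F1 against control and 0.51 ± 0.80 for F2 offspring against control, and the groups overlapped in both.

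mup-2 is troponin T, the subunit that ties troponin to tropomyosin. It had 4.97 and 12.6 CPM in “red-head” F1 libraries, 13.4 and 0.573 CPM in F2 offspring libraries, and 8.98 and 2.15 CPM in control libraries. The value in F2 offspring replicate 2 rested on 2 counts, with an interval of 0.0694 to 2.07 CPM, against 93 counts in F2 offspring replicate 1. unc-27 is troponin I, the inhibitory subunit. It had 3.06 and 13.7 CPM in “red-head” F1 libraries, 10.7 and 0.86 CPM in F2 offspring libraries, and 4.69 and 3.32 CPM in control libraries. The 3 counts of unc-27 in F2 offspring replicate 2 gave an interval of 0.177 to 2.51 CPM, below that of F2 offspring replicate 1, which was 8.39 to 13.4 CPM. Neither gene separated the groups.

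pat-10, the body wall troponin C that binds calcium, had 7.62 and 17 CPM in “red-head” F1 libraries, 33.8 and 2.01 CPM in F2 offspring libraries, and 7.10 and 4.69 CPM in control libraries. Both “red-head” libraries were above both control libraries, by a narrow margin for “red-head” replicate 1, whose interval of 6.14 to 9.34 CPM overlapped that of control replicate 1, 5.32 to 9.29 CPM. pat-10 had the largest fitted difference from control of the 8 tested members in both generations. Its log2 fold change was 1.00 ± 1.03 for “red-head” F1 against control (adjusted p = 0.888 in edgeR's quasi-likelihood test) and 1.62 ± 1.01 for F2 offspring against control (adjusted p = 0.999 in the same test). The F2 value came from 1 library: without F2 offspring replicate 1 it was -1.55.

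The 2 regulators were near the limit of what these depths can count. lim-7, a LIM homeodomain gene whose reporters mark the gonadal sheath, had 3.56 and 0.37 CPM in “red-head” F1 libraries, 1.3 and 1.1 CPM in F2 offspring libraries, and 2.95 and 1.17 CPM in control libraries. The counts behind these values were 43 and 1 in “red-head” F1, 9 and 4 in F2 offspring, and 22 and 6 in control. “Red-head” F1 thus held both the highest and the lowest library. The log2 fold change of lim-7 was 0.13 ± 0.85 for “red-head” F1 against control (adjusted p = 0.986 in edgeR's quasi-likelihood test), and it was -2.43 without “red-head” replicate 1. ceh-18, a POU homeodomain gene needed for sheath differentiation, had 1.41 and 0.741 CPM in “red-head” F1 libraries, 0.578 and 0.287 CPM in F2 offspring libraries, and 1.07 and 0.391 CPM in control libraries. It rested on 34 counts in all 6 libraries and did not pass the filter, so the filtered fit did not test a difference between groups.

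Across the members, no group difference passed the test. For “red-head” F1 against control, 0 of the 8 tested members had an adjusted p under 0.05 (edgeR's quasi-likelihood test), beside 0% of the 8117 tested genes, and 0 had an unadjusted p under 0.05, beside 7.65% of tested genes. pat-10, 1 of 8, had both “red-head” libraries above both control libraries, beside 18.4% of tested genes, and 0 of 8 had both below, beside 19.6%. Fitted log2 fold changes were positive for 7 of 8 members, against 48.7% of tested genes. Among the 7 was lim-7 at 0.13, although its mean CPM was 1.97 in “red-head” F1 and 2.06 in control. The median of the 7 filament genes was 0.80, against -0.01 over all tested genes. Without “red-head” replicate 2, the log2 fold changes of lev-11, mup-2 and unc-27 were -0.08, -0.19 and -0.39, and those of unc-54, unc-15, pat-10 and lim-7 were 0.27, 0.04, 0.36 and 0.75.

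For F2 offspring against control, 0 of 8 members had an adjusted p under 0.05 in edgeR's quasi-likelihood test, beside 0.123% of tested genes, 0 had an unadjusted p under 0.05, beside 1.29%. None of them separated the groups: 0 had both F2 libraries above both control libraries, beside 16.4% of tested genes, and 0 had both below, beside 16.6%. The filament median was a log2 fold change of 0.37, against 0.00 over all tested genes. unc-54 had 0.28 ± 0.66, myo-3 had -0.08 ± 0.62, unc-15 had 0.08 ± 0.69, mup-2 had 0.37 ± 1.12, unc-27 had 0.59 ± 1.03 and lim-7 had -0.76 ± 0.93 as log2 fold change ± SE. Leaving out F2 offspring replicate 1 turned the sign for unc-54, unc-15, lev-11, mup-2, pat-10 and unc-27, which then ranged from -1.29 for unc-54 to -3.26 for mup-2.

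“Red-head” F1 and their F2 offspring were also compared directly. In that contrast 0 of 8 members had an adjusted p under 0.05 in edgeR's quasi-likelihood test, beside 0.0123% of tested genes, 0 had an unadjusted p under 0.05, beside 10.2%. Of the 8, 0 had both “red-head” libraries above both F2 offspring libraries, beside 17.5% of tested genes, and 0 had both below, beside 20.4%. The filament median was a log2 fold change of 0.28 for “red-head” F1 against F2 offspring, against -0.01 over all tested genes. Single values ran from -0.62 ± 0.99 for pat-10 to 0.80 ± 0.69 for unc-15, and lim-7 had 0.89 ± 0.92. DESeq2, fitted to the same genes, called 0 of 8 members in both comparisons with control and 0 of 7 for “red-head” F1 against F2 offspring, where it gave lim-7 no adjusted p. The comparisons with control share the control libraries, so their values are not independent of each other.

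**Figure D2:**
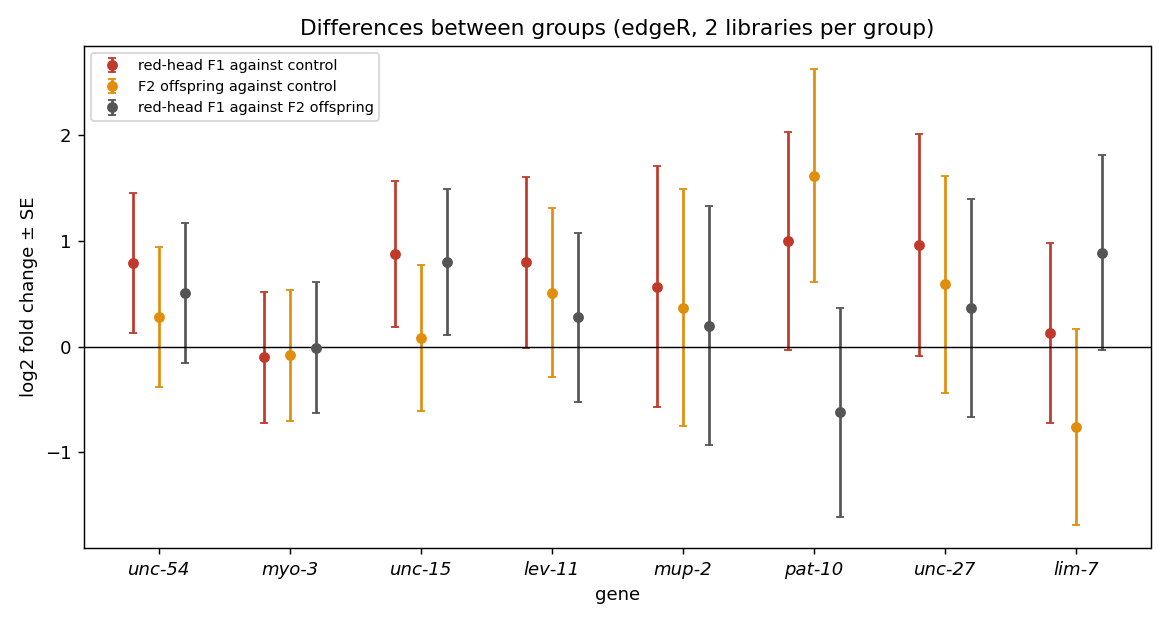
Log2 fold change ± SE of the 8 tested members in the 3 comparisons from edgeR's fit. Positive values mean higher in the group named first; the values run from -0.76 for lim-7 to 1.62 for pat-10, both in F2 offspring against control, and 0 of 8 members had an adjusted p under 0.05 in any comparison.

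The filter on low counts decided 1 call. In a fit of all 23478 genes with a count, unc-54 had a log2 fold change of 0.78 ± 0.22 for “red-head” F1 against control and an adjusted p of 0.0362 by edgeR's quasi-likelihood test, against 0.79 ± 0.66 and 0.855 with the filter. The estimate stayed and its error shrank. In the unfiltered fit edgeR set the spread of every gene on the common trend (infinite prior degrees of freedom), whereas the filtered fit let single genes deviate from it (4.33 prior degrees of freedom). The unfiltered error of 0.22 is smaller than the distance between replicate libraries of unc-54, which differed 1.93-fold in “red-head” F1, 4.79-fold in F2 offspring and 1.96-fold in control. pat-10 came next, with an adjusted p of 0.0558 by the same unfiltered edgeR fit for F2 offspring against control.

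The larger pattern in these genes lay between libraries, not between groups. The summed filament level was 81.3 and 183 CPM in “red-head” F1 libraries, 173 and 27.5 CPM in F2 offspring libraries, and 95.6 and 54.5 CPM in control libraries. As group means these sums were 132 ± 71.6 CPM in “red-head” F1, 100 ± 103 CPM in F2 offspring and 75.1 ± 29 CPM in control. The highest library, “red-head” replicate 2, was 6.64-fold above the lowest, F2 offspring replicate 2. Both are the shallowest libraries of their groups, and within each group the replicates differed 2.25-fold in “red-head” F1, 6.30-fold in F2 offspring and 1.75-fold in control. In bulk tissue, fewer muscle or sheath cells and less filament RNA per cell cannot be told apart.

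The filament genes moved from library to library together. All 7 were lowest in F2 offspring replicate 2, an arrangement found in 18.9% of tested genes. For 6 of 7, the highest libraries were “red-head” replicate 2 and F2 offspring replicate 1, an order that 5.37% of tested genes had. The exception was myo-3, which was highest in control replicate 1 at 8.44 CPM, next to 8.37 CPM in F2 offspring replicate 1. Over the 21 pairs of filament genes, Pearson's r of log2 CPM across the 6 libraries ran from 0.69 to 0.99 with a median of 0.93, where the points share libraries, depth and scaling. The pair of tropomyosin lev-11 and troponin I unc-27 had 0.99, and the pairs of myo-3 with lev-11 and with unc-15 had 0.69.

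**Figure D3:**
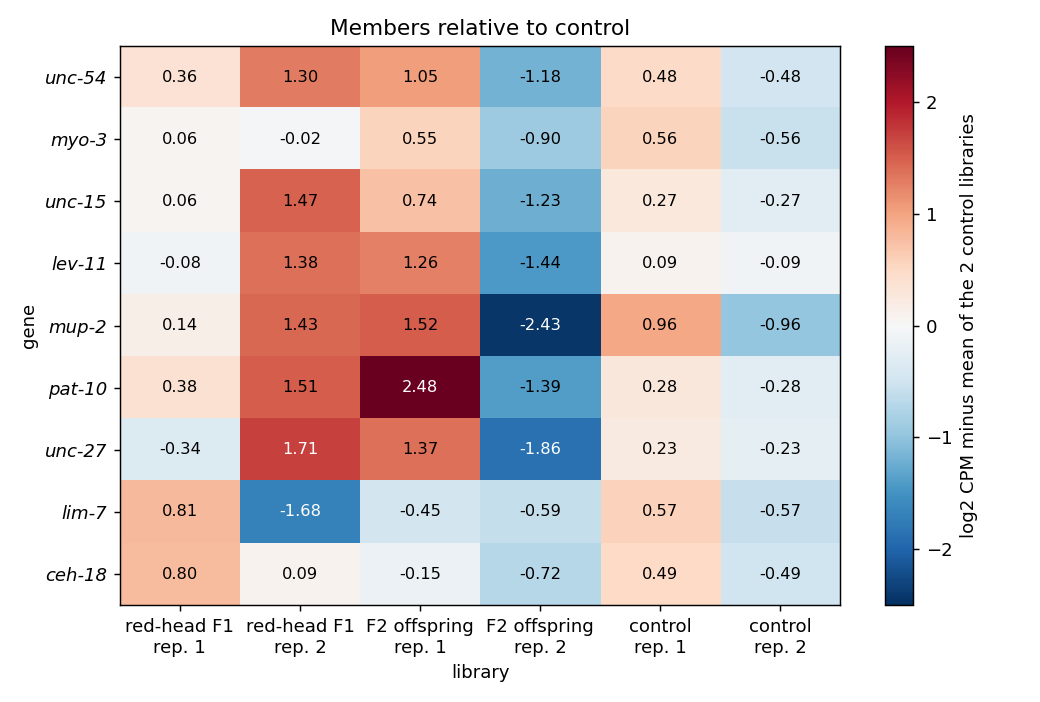
Log2 CPM of each gene in each library minus the mean of the 2 control libraries, with genes in rows and libraries in columns, red for higher and blue for lower. Filament genes are red in “red-head” F1 replicate 2 and F2 offspring replicate 1, where pat-10 reaches 2.48, and blue in F2 offspring replicate 2, where mup-2 reaches -2.43; myo-3 at -0.02 and lim-7 at -1.68 depart from this in “red-head” F1 replicate 2.

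Each filament gene spread more over the libraries than the median tested gene. The SD of log2 CPM over 6 libraries was 0.94 for unc-54, 0.92 for unc-15, 1.04 for lev-11, 1.36 for pat-10, 1.29 for unc-27, 1.55 for mup-2 and 0.59 for myo-3, against a median of 0.23 over tested genes. Among tested genes, 1.81% had a larger SD than mup-2 and 17.7% a larger SD than myo-3. Low counts widen these values: among 776 tested genes of similar abundance to mup-2, 3.48% had a larger SD, and among 957 of similar abundance to unc-54, 2.30% did. For myo-3 the share was 32.2% of 770 genes, so its spread was near that of other genes at its level.

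Between replicate libraries, the median filament difference was 2.70 on the log2 scale for F2 offspring replicate 1 minus replicate 2, with 7 of 7 genes higher in replicate 1. It was -1.29 for “red-head” replicate 1 minus replicate 2 and 0.57 for control replicate 1 minus replicate 2. Over all tested genes the median absolute difference of the same pairs was 0.21, 0.29 and 0.17. The count files' names carry tags whose meaning the sources do not state, and 2 pairs of libraries share one. Within the first pair, F2 offspring replicate 1 minus control replicate 1 was 0.57 for the filament median, with 6 of 7 genes higher in the F2 library. Within the second, “red-head” replicate 2 minus F2 offspring replicate 2 was 2.83, with 7 of 7 higher in the “red-head” library. No tag held both a “red-head” and a control library, so this comparison has no value within a tag.

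The genes did not keep fixed proportions to each other. Relative to unc-54 in the same library and per length, pat-10 was at 1.3 and 1.5 in “red-head” F1 libraries, 3.55 and 1.01 in F2 offspring libraries, and 1.11 and 1.43 in control libraries. F2 offspring replicate 1 stood apart from the other 5. In that library 35.9% of the pooled pat-10 and unc-54 counts were pat-10 (exact binomial 95% interval 32.2% to 39.7%), against point values of 13.7% to 19.2% in the rest, of which the highest upper bound was 26.3%. Troponin C RNA was therefore high relative to myosin RNA in 1 library and not in its replicate.

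myo-3 went the other way in another library. The ratio of unc-54 to myo-3 per length was 6.24 and 12.7 in “red-head” F1 libraries, 7.09 and 4.33 in F2 offspring libraries, and 4.73 and 5.49 in control libraries. In “red-head” replicate 2, myo-3 took 7.18% of the pooled counts of both myosins (exact binomial 95% interval 4.07% to 11.6%), and in the other libraries it took 12.2% to 18.5%. That interval was below the point value of every other library and overlapped the intervals of 4 of the other 5 libraries, all but that of control replicate 1 (13.5% to 21.5%). The ratio of unc-15 to unc-54 per length was 0.568 and 0.794 in “red-head” F1 libraries, 0.568 and 0.659 in F2 offspring libraries, and 0.604 and 0.803 in control libraries. “Red-head” replicate 1 was below both control libraries in this ratio and “red-head” replicate 2 was between them. The part in the unc-54 counts of the TdTomato transgene, which holds the unc-54 3′UTR, was not tested. Without unc-54, the filament sum of that library was 111 CPM, against 44.1 CPM in “red-head” replicate 1.

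**Figure D4:**
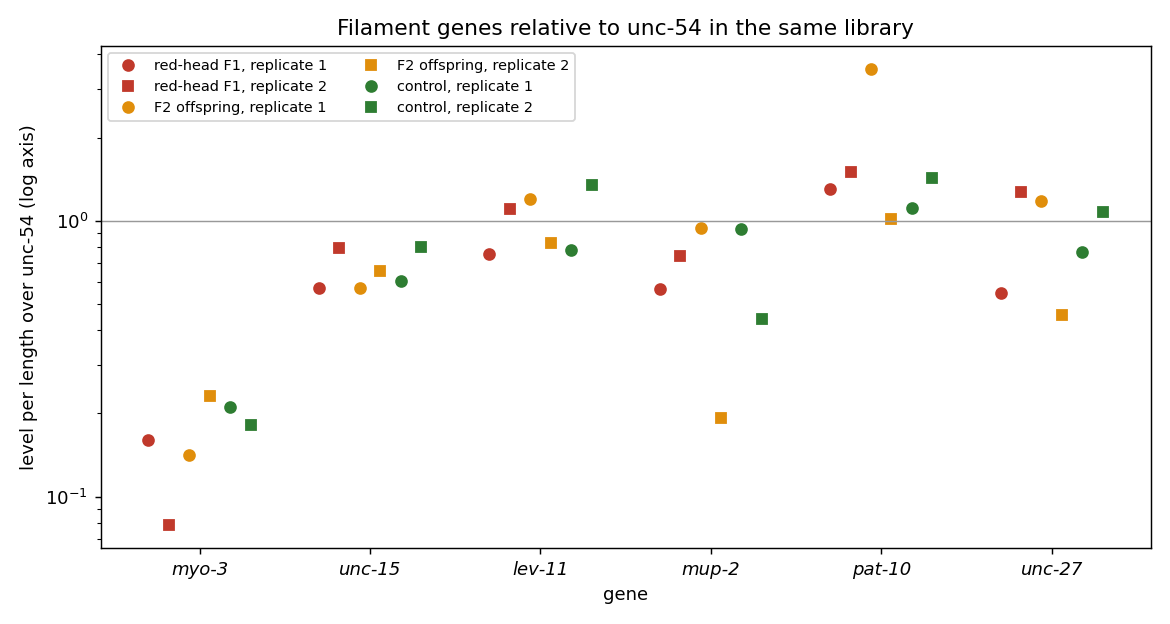
Level per length of 6 filament genes divided by that of unc-54 in the same library, on a log axis, with colours for groups and circles and squares for replicates 1 and 2. pat-10 is at 3.55 in F2 offspring replicate 1 and between 1.01 and 1.5 elsewhere, and myo-3 is lowest in “red-head” F1 replicate 2.

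Thin and thick filament genes were also summed apart. The 4 thin filament genes had 26.5 and 73.7 CPM in “red-head” F1 libraries, 85.8 and 7.45 CPM in F2 offspring libraries, and 33.0 and 20.9 CPM in control libraries. The 3 thick filament genes had 54.8 and 109 CPM in “red-head” F1 libraries, 87.6 and 20.1 CPM in F2 offspring libraries, and 62.6 and 33.6 CPM in control libraries. The ratio of thin to thick filament counts was 0.483 and 0.677 in “red-head” F1, 0.979 and 0.371 in F2 offspring, and 0.527 and 0.622 in control. Its highest and lowest values were thus the F2 offspring replicates, and the “red-head” and control values overlapped.

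The regulators followed another order of libraries than the filaments. Summed, lim-7 and ceh-18 had 4.97 and 1.11 CPM in “red-head” F1 libraries, 1.88 and 1.43 CPM in F2 offspring libraries, and 4.02 and 1.56 CPM in control libraries, from 60 and 3, 13 and 5, and 30 and 8 counts. The library with the most filament RNA, “red-head” replicate 2, had the least of these. The order of the regulator sum was that of library depth, from 11310273 counts on genes in “red-head” replicate 1 to 2721055 in “red-head” replicate 2. The part of depth in these values was not tested. Across the 6 libraries the mean filament profile had r = -0.19 with lim-7 and 0.48 with ceh-18, and lim-7 with ceh-18 had 0.59, all descriptions over low counts.

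Innexins of the sheath side of the germline gap junctions were counted more deeply than the regulators. inx-8 and inx-9, which couple sheath to germ cells, together had 72.0 and 20.7 CPM in “red-head” F1 libraries, 64.7 and 37.0 CPM in F2 offspring libraries, and 72.1 and 36.2 CPM in control libraries, from 56 to 870 counts. Replicate 2 was the lower library in every group, and also the one with fewer counts on genes. lim-7 followed depth as well, and the part of depth in its r values was not tested. inx-8 had r = 0.92 with lim-7 and -0.05 with the filament profile, and inx-9 had 0.77 and 0.38. The filament sum divided by the innexin sum was 1.13 and 8.80 in “red-head” F1, 2.68 and 0.744 in F2 offspring, and 1.33 and 1.51 in control. This ratio was highest in “red-head” replicate 2. Other genes of sheath coupling and signalling differed among themselves. gsa-1, a Gs alpha subunit gene, had r = 0.93 with the filament profile and itr-1 had 0.79. acy-4, which failed the filter, had r = 0.83 with lim-7 and 0.13 with the filament profile. Like the innexins it was lowest in “red-head” replicate 2, at 0.37 CPM from 1 count. ced-1 followed neither, with r = -0.39 with lim-7 and -0.07 with the filament profile. Over all 10 genes of that list, the median log2 difference from the control mean was 0.41 in “red-head” replicate 2. It was 0.39 in control replicate 1 and 0.34 in F2 offspring replicate 1, and lowest in F2 offspring replicate 2 at -0.63. The germline partners inx-14, inx-21 and inx-22, by contrast, summed to 333 and 321 CPM in “red-head” F1, 308 and 318 CPM in F2 offspring, and 335 and 341 CPM in control.

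Markers of other somatic tissues were high in some of the same libraries. For 10 hypodermis genes, of which 4 passed the filter, the sum was 42.7 and 102 CPM in “red-head” F1 libraries, 92.7 and 26.1 CPM in F2 offspring libraries, and 44.1 and 35.6 CPM in control libraries. This is the same order of libraries as the filament sum, set by the collagens col-140, at 58.5 CPM in “red-head” replicate 2, and col-19, at 38.8 CPM in F2 offspring replicate 1, while the collagen genes dpy-7 and rol-6 had at most 1 count in any library. The other tested hypodermis genes went against that order, with r = -0.44 for bli-1 and -0.75 for lon-3 with the filament profile. Most of the 10 genes failed the filter at low counts. Over all 10, the median log2 difference from the control mean was -0.01 in “red-head” replicate 2 and -0.10 in F2 offspring replicate 1. For 11 intestine genes, of which 6 passed the filter, the sum was 2117 and 3665 CPM in “red-head” F1 libraries, 666 and 115 CPM in F2 offspring libraries, and 259 and 198 CPM in control libraries. The yolk protein genes vit-2 and vit-6 made up most of it, fat-7 had 0 counts in every library, and elt-2, the defining intestinal GATA factor, had 5 and 3 counts in “red-head” F1, 2 and 0 in F2 offspring, and 0 and 0 in control. The hypodermis and intestine sums were lowest in F2 offspring replicate 2 and highest in “red-head” replicate 2, as the filament sum was. Among the tested intestine genes, spp-1 went against that order, with r = -0.34 with the filament profile. The part of other tissues in the filament values was not tested.

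**Figure D5:**
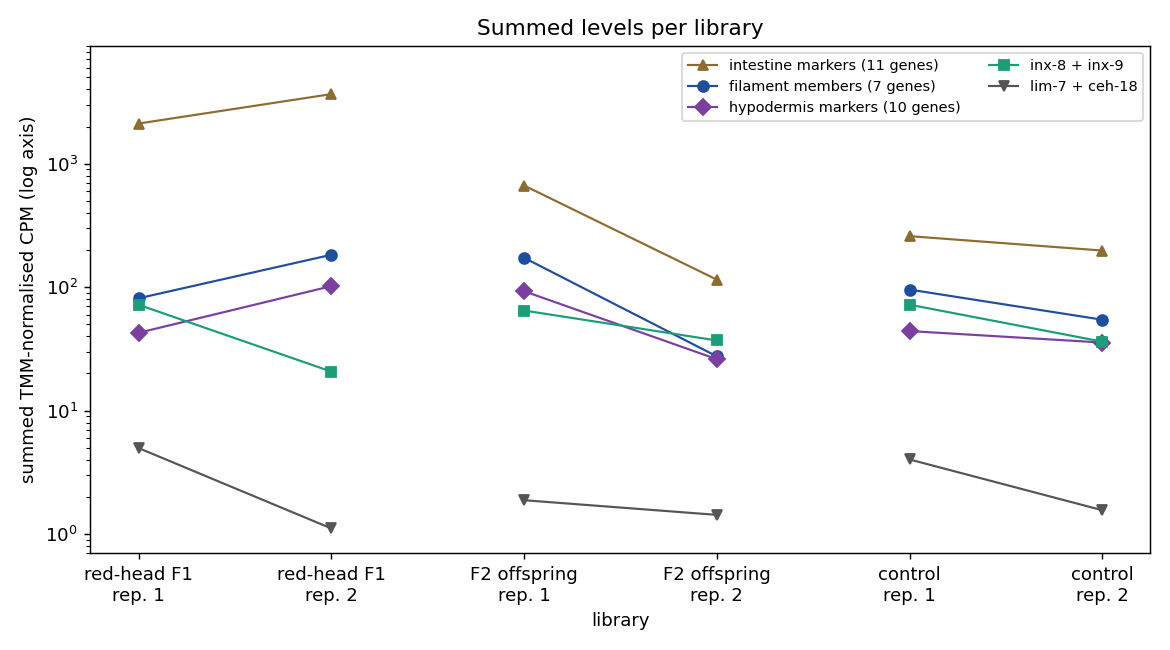
Summed TMM-normalised CPM per library on a log axis for the 7 filament genes, lim-7 plus ceh-18, inx-8 plus inx-9, and the hypodermis (10 genes) and intestine (11 genes) marker lists, with lines joining the 2 replicates of a group. The filament sum and the hypodermis sum, which rests on 2 collagen genes, have the same order (183 and 102 CPM in “red-head” F1 replicate 2, 27.5 and 26.1 CPM in F2 offspring replicate 2), while the innexin sum is lowest, at 20.7 CPM, in “red-head” F1 replicate 2.

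Regulators that define body wall muscle were scarce. hlh-1, the MyoD-type factor of body wall muscle, had 0 counts in each of the 6 libraries, where the limit that a count of 0 allows was 0.248 to 1.11 CPM. unc-120, an SRF-type muscle factor, had 7 and 1 counts in “red-head” F1, 6 and 3 in F2 offspring, and 4 and 0 in control. Of the 11 genes of this list, 4 passed the filter and 0 were called in any comparison. The tested genes with the highest and lowest log2 fold change for “red-head” F1 against control were the acetylcholine receptor gene unc-63, at 0.89, and the calcium channel gene egl-19, at -0.35. For F2 offspring against control unc-63 was highest at 0.34 and the ryanodine receptor gene unc-68 lowest at -0.42, and for “red-head” F1 against F2 offspring unc-63 was highest at 0.54 and egl-19 lowest at -0.07. The calcium pump gene sca-1 of this list was abundant, at 535 to 765 CPM.

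Other contractile genes included rare and abundant RNAs. The list held 22 genes and 19 passed the filter, with 0 called and median log2 fold changes of 0.04 for “red-head” F1 against control, 0.15 for F2 offspring against control and -0.12 for “red-head” F1 against F2 offspring. The troponin T gene tnt-2 had 1.41 and 10.7 CPM in “red-head” F1 libraries, 7.80 and 1.43 CPM in F2 offspring libraries, and 1.34 and 0.782 CPM in control libraries. It was the highest of the list in both comparisons with control, with a log2 fold change of 2.32 for “red-head” F1 (adjusted p = 0.716 in edgeR's quasi-likelihood test) and 2.13 for F2 offspring (adjusted p = 0.999 in the same test). The myosin light chain gene mlc-3 had 5.30 and 9.26 CPM in “red-head” F1, 17.3 and 1.72 CPM in F2 offspring, and 5.09 and 2.93 CPM in control. Both genes were highest in the libraries where the members were high.

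By contrast, the actin gene act-2 had 1311 and 1318 CPM in “red-head” F1, 1379 and 1398 CPM in F2 offspring, and 1383 and 1343 CPM in control. The non-muscle myosin gene nmy-2, which drives cytokinesis and shapes the syncytial germline, had 1498 and 1782 CPM in “red-head” F1, 1608 and 1905 CPM in F2 offspring, and 1667 and 1696 CPM in control. Neither followed the filament order. Across the list, r with the filament profile ran from -0.53 for mlc-4, a non-muscle myosin light chain, to 0.96 for the titin-like ttn-1. The actin genes act-1 to act-4 and the light chains mlc-1 and mlc-2 are near-identical copies, so their single values are uncertain. The lowest log2 fold changes of the list were -0.51 for the giant kinase unc-22 in “red-head” F1 against control, -0.84 for the actin-severing partner unc-78 in F2 offspring against control, and -1.03 for mlc-1 in “red-head” F1 against F2 offspring, where unc-78 was highest at 0.62.

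Genes that anchor filaments to the membrane gave no call either. Of 16 dense body and attachment genes 14 were tested, and median log2 fold changes were 0.00 for “red-head” F1 against control, -0.06 for F2 offspring against control and 0.13 for “red-head” F1 against F2 offspring. dim-1, an immunoglobulin-repeat protein of the attachment sites, had 2.40 and 6.67 CPM in “red-head” F1, 3.32 and 0.86 CPM in F2 offspring, and 3.08 and 2.93 CPM in control. It was the highest of the list at 0.48 for “red-head” F1 against control, lowest at -0.43 for F2 offspring against control and highest at 0.91 for “red-head” F1 against F2 offspring. The LIM domain genes zyx-1 and alp-1 gave the other extremes, 0.76 for zyx-1 in F2 offspring against control, -0.52 for zyx-1 in “red-head” F1 against F2 offspring and -0.38 for alp-1 in “red-head” F1 against control.

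Of 10 genes of sheath coupling and signalling 8 were tested, with 0 called and median log2 fold changes of 0.30, 0.08 and 0.08 in the same order of comparisons. itr-1, the IP3 receptor that releases calcium for sheath contraction, was highest at 0.82 for “red-head” F1 against control and at 0.64 for “red-head” F1 against F2 offspring, and spv-1, a RhoGAP known from the spermatheca, was highest at 0.72 for F2 offspring against control. plc-1, a phospholipase C that makes IP3, was lowest in all 3, at -1.03, -0.42 and -0.61. It rested on 3 to 26 counts per library. fln-1, filamin, was abundant, with 1537 and 2056 CPM in “red-head” F1, 1432 and 1836 CPM in F2 offspring, and 1515 and 1487 CPM in control, and did not follow the filament profile (r = -0.06).

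The genes whose library profiles were most like the members were found over the tested genes. Pearson's r with the mean filament profile over 6 libraries was 0.991 for Y43F8B.1, 0.986 for C46F11.5, 0.984 for the bZIP factor gene atf-4, 0.981 for avr-14, a glutamate-gated chloride channel gene, and 0.978 for the alpha-tubulin gene tba-4. Most of these were rare: atf-4 had 2.24 and 3.70 CPM in “red-head” F1, 5.05 and 0.287 CPM in F2 offspring, and 2.28 and 0.978 CPM in control, and Y43F8B.1 and avr-14 had 0 CPM in F2 offspring replicate 2. For lim-7 the values were 0.996 for ZK829.7, 0.996 for cup-5, a lysosomal channel gene, 0.991 for the meiotic pairing gene zim-2, 0.987 for Y55B1AL.1 and 0.985 for F34H10.3. zim-2 had 95.6 and 81.5 CPM in “red-head” F1, 87.5 and 87.4 CPM in F2 offspring, and 94 and 85.8 CPM in control. lim-7 itself ordered the libraries by depth, and the part of depth in these r values was not tested. With scaling by library size alone, 3 of the 5 genes remained for the filament profile and 2 of the 5 for lim-7.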

How the data were processed

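RNA was measured in 6 libraries of distal gonad arms, 2 biological replicates per group. Total RNA was depleted of ribosomal RNA and read as 50 bp single ends. The authors aligned the reads to WS220 with TopHat2 and deposited whole-number HTSeq counts per gene, without normalization. Strand and multiply aligned reads are not described in the sources used here. Rows that name no gene were left out (no feature 10.7% to 15.2%, ambiguous 1.59% to 2.15% of reads). The authors' DESeq2 table holds only their own comparisons and was not used.

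Groups came from the labels. Of 45461 gene names, 44115 matched the Ensembl annotation (WBcel235), which gave chromosome and merged exonic length. Its coordinates entered only these lengths and the check for exons shared with other genes. Of 125 list genes 124 matched. In R 4.3.3 with edgeR 4.0.16, low counts were removed by filterByExpr, TMM factors were computed and glmQLFit was run on the 6 libraries together. glmQLFTest gave the 3 contrasts, with a Benjamini-Hochberg threshold of 0.05. The SE is the absolute log2 fold change divided by the square root of F. Log2 CPM used a prior count of 2. The alternatives were DESeq2 1.42.0, RLE and library-size scaling, no filter, a minimum of 10 counts in each library, the 4 libraries compared, a replicate block, an adjusted p of 0.1, differences within file-name tags, gene length and each library left out.

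The members and gene lists were chosen with earlier results of these data known. Genes named were all 9 members, the highest and lowest tested log2 fold change of each list in each comparison, any list gene called, and the 5 genes most correlated with the filament mean and with lim-7. Genes outside this rule are named with their levels to describe a list and were chosen after their values were seen. Replicate libraries of a group differed beyond sampling noise, so none was counted as a duplicate.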

Additional observations from a re-analysis of the deposited data

Results flagged for a closer look

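The libraries of ceh-18 lay on opposite sides of the control mean in the 2 generations, although each generation overlapped the control libraries. Both “red-head” F1 libraries were above the mean of the control libraries (0.80 and 0.09 on the log2 scale) and both F2 offspring libraries were below it (-0.15 and -0.72), a difference of 0.88 in mean log2 CPM for “red-head” F1 minus F2 offspring. The difference was not tested in the filtered fit, which left ceh-18 out. In the unfiltered fit the log2 fold change of ceh-18 was 1.31 ± 1.05 for “red-head” F1 against F2 offspring, with an adjusted p of 0.92 by edgeR's quasi-likelihood test. Both “red-head” libraries lay above both F2 offspring libraries, as in 17.5% of tested genes. The counts were 17 and 2 in “red-head” F1 and 4 and 1 in F2 offspring.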

How the results depend on the processing

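The member calls held under the alternatives with 1 exception: without the filter, 1 member (unc-54) was called for “red-head” F1 against control. Counts of all genes called moved more. For “red-head” F1 against control, 0 genes were called in the filtered fit, 355 without a filter, 7 with the replicate block, 8 in a fit of the 4 libraries compared, 95 with DESeq2 and 0 to 54 with a library left out. For F2 offspring against control, 10 were called, 4 with library-size scaling, 68 without a filter, 17 with DESeq2 and 4 to 14 with a library left out. For “red-head” F1 against F2 offspring, 1 was called, 6 with RLE, 3 with library-size scaling, 383 without a filter, 6 with at least 10 counts in every library, 7 with the replicate block, 5 in the fit of 4 libraries, 127 with DESeq2, 7 at an adjusted p of 0.1 and 0 to 69 with a library left out. The cause of these shifts was not tested. With a library left out, a group of 1 is assumed to vary like the others, and log2 fold changes for “red-head” F1 against control ranged from -0.55 to 0.62 for myo-3, -0.08 to 1.41 for lev-11, -0.19 to 1.97 for mup-2, -0.39 to 1.77 for unc-27 and -2.43 to 0.92 for lim-7. They kept their sign for unc-54 (0.27 to 1.37), unc-15 (0.04 to 1.47) and pat-10 (0.36 to 1.52). For F2 offspring against control the ranges were -1.29 to 0.96 for unc-54, -1.09 to 0.63 for myo-3, -1.31 to 0.73 for unc-15, -1.51 to 1.28 for lev-11, -3.26 to 1.75 for mup-2, -1.55 to 2.5 for pat-10, -2.20 to 1.40 for unc-27 and -1.25 to 0.07 for lim-7. For “red-head” F1 against F2 offspring they were -0.19 to 2.08 for unc-54, -0.55 to 0.99 for myo-3, -0.05 to 2.18 for unc-15, -0.60 to 2.30 for lev-11, -0.69 to 3.82 for mup-2, -1.52 to 2.56 for pat-10, -0.99 to 3.16 for unc-27 and -1.66 to 1.52 for lim-7. Signs turned elsewhere for lim-7 in “red-head” F1 against control (-0.09 with the replicate block) and, in “red-head” F1 against F2 offspring, for myo-3 (0.00 with RLE, 0.09 with library-size scaling, 0.13 with the replicate block, 0.03 in the fit of 4 libraries, 0.01 with DESeq2 and 0.88 within a tag), pat-10 (2.90 within a tag) and lim-7 (-1.09 within a tag). Deviations of libraries with the same replicate number had r of -0.09 between “red-head” F1 and control, 0.39 between F2 offspring and control and 0.03 between “red-head” F1 and F2 offspring, and the labels give no shared origin for a number, although F2 offspring replicate 1 and control replicate 1, and “red-head” replicate 2 and F2 offspring replicate 2, share a file-name tag. Depth limits mup-2, unc-27, lim-7 and ceh-18 most, with 1 to 3 counts in their lowest libraries.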

Other observations

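The basement membrane genes, which encode the sheet between sheath and body cavity, were all measurable: 10 of 10 were tested and 0 were called, with median log2 fold changes of 0.25 for “red-head” F1 against control, 0.32 for F2 offspring against control and -0.25 for “red-head” F1 against F2 offspring. mig-6, papilin, was highest at 1.07 for “red-head” F1 and 1.28 for F2 offspring against control, with 8.94 and 22.2 CPM in “red-head” F1, 23.0 and 11.7 CPM in F2 offspring, and 7.91 and 6.45 CPM in control. Every library of both other groups was above both controls for mig-6, beside 18.4% of tested genes for “red-head” F1 and 16.4% for F2 offspring. cle-1, a type XVIII collagen, was lowest in all 3 comparisons, at -0.82, -0.12 and -0.70, and the laminin lam-2 was highest at 0.44 for “red-head” F1 against F2 offspring. The type IV collagens emb-9 and let-2 had their highest values in F2 offspring replicate 1 (46.6 and 95.2 CPM) and control replicate 1 (46.4 and 85.9 CPM).

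Pharyngeal muscle was barely detected. Of 7 genes 1, the troponin I gene tni-4, was tested, with log2 fold changes of -0.71, -0.15 and -0.55, and the list summed to 4.72 and 2.59 CPM in “red-head” F1, 7.22 and 2.58 CPM in F2 offspring, and 6.84 and 5.28 CPM in control. Of 10 neuron genes 1 was tested, unc-13, with 0.90, 0.28 and 0.62, and of 5 distal tip cell genes 1, gon-1, with 0.33, -0.07 and 0.40. Of the 10 germline genes 10 were tested and 0 called. The extremes were cpg-2 at 0.32 and glh-1 at -0.43 for “red-head” F1 against control, gld-1 at 0.24 and cpg-2 at -0.14 for F2 offspring against control, and cpg-2 at 0.45 and glh-1 at -0.50 for “red-head” F1 against F2 offspring. The germline gap junction extremes were inx-21 at 0.14 and inx-22 at -0.10 for “red-head” F1 against control, inx-21 at -0.00 and inx-14 at -0.17 for F2 offspring against control, and inx-21 at 0.14 and inx-22 at 0.01 for “red-head” F1 against F2 offspring.

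Among intestine genes, 0 of 6 tested were called. asp-1 at 3.96 and spp-1 at 0.21 were the extremes for “red-head” F1 against control, act-5 at 1.80 and spp-1 at -0.63 for F2 offspring against control, and vit-6 at 3.04 and act-5 at 0.19 for “red-head” F1 against F2 offspring, and the smallest adjusted p of the list was 0.152 by edgeR's quasi-likelihood test. Among hypodermis genes, 0 of 4 tested were called, with col-140 at 1.34 and bli-1 at -0.02 for “red-head” F1 against control, col-19 at 1.12 and bli-1 at -0.13 for F2 offspring against control, and col-140 at 0.69 and col-19 at -0.33 for “red-head” F1 against F2 offspring.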
